A study of Mus musculus with 6 samples.

Results

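Box H/ACA small nucleolar RNAs and small Cajal body RNAs were followed in hearts of mice that lack Elac2 in muscle. They were taken from the authors' deposited comparison as every feature of gene type snoRNA whose name starts with Snora, and every feature of gene type scaRNA. This gave 92 of 30638 features, 41 Snora genes and 51 scaRNA genes. At least 1 read was counted for 52 of them, 31 Snora and 21 scaRNA, and 40 were at 0 in all 6 libraries. The filter on low counts left 35, 24 Snora and 11 scaRNA.

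Box H/ACA snoRNAs fold into a pair of hairpins, end in the trinucleotide ACA shortly before the 3′ end, and guide the dyskerin complex to uridines of ribosomal RNA that are turned into pseudouridine. Some of them, such as the U17 RNAs encoded by Snora73a and Snora73b, are instead needed for cleavage of the ribosomal RNA precursor. The scaRNAs collect in Cajal bodies and guide modification of spliceosomal snRNAs, with H/ACA boxes, with the C and D boxes of RNAs that guide ribose methylation, or with both. Many mammalian snoRNAs are cut out of introns of host genes, and genes of the translation machinery are common hosts. ELAC2, the RNase Z of animal cells, cuts the 3′ trailer from tRNA precursors in the nucleus and in mitochondria.

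The knockout group held hearts of 3 mice labelled L/L, cre with the genotype Elac2 -/-, and the control group hearts of 3 mice labelled L/L, all of the C57BL/6 strain. In the knockout mice a loxP-flanked exon of Elac2 had been excised by cre under the promoter of muscle creatine kinase (creatinine kinase in the labels), which is active in heart and skeletal muscle cells and not in the other cells of a heart. The control mice carry no cre. Their titles describe floxed alleles, while their genotype label reads Elac2 +/+. The labels state no age, but the column name of every library's raw counts begins with M4WHEART, where 4W may stand for 4 weeks. Each mouse gave 1 library of total heart RNA, built from inserts of 15 to 100 nt. The design text names 4 technical replicates per mouse, and the sources used here do not say how they were merged.

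Their sequences show the shared 3′ end and the near-identical pair Snora73b and Snora73a. Shown are those of the 8 members that passed the test, all of them Snora genes, of Gm25492, the scaRNA gene with the most reads among those that end like an H/ACA RNA, and of Scarna6, known in human as U88, an RNA with boxes of both kinds. They are GENCODE M21 transcripts of GRCm38 (mm10), written as DNA from 5′ to 3′. Capitals mark ACA 3 bases before the end, or 1 base before it in Snora41, and in Scarna6 the sequences TGATGA and CTGA of boxes C and D.
Snora73b: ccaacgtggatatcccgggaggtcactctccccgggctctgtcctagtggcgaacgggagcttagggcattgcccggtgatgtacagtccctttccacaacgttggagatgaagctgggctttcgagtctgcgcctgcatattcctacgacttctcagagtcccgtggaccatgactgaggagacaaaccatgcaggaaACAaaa
Snora73a: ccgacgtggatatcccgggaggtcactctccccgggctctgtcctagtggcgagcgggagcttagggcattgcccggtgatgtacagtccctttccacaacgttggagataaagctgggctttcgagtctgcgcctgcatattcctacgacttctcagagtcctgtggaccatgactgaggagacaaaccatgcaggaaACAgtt
Snora41: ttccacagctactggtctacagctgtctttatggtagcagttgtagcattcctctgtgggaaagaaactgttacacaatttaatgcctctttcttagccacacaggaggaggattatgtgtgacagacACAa
Snora57: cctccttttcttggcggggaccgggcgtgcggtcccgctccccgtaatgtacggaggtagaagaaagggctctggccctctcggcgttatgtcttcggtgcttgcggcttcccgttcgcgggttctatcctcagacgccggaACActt
Snora21: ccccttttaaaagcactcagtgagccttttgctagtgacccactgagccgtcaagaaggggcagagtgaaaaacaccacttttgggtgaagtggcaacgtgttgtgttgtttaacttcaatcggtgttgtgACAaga
Snora65: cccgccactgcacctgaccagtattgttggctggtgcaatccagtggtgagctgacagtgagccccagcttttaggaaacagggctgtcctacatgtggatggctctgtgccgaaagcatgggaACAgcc
Snora34: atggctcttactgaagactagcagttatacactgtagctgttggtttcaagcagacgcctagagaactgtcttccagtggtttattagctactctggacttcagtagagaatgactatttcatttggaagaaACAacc
Snora3: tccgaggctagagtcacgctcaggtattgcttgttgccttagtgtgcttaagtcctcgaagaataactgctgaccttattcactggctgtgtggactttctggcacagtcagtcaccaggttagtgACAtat
Gm25492: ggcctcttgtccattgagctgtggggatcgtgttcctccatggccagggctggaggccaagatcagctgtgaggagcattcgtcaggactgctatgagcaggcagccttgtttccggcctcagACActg
Scarna6: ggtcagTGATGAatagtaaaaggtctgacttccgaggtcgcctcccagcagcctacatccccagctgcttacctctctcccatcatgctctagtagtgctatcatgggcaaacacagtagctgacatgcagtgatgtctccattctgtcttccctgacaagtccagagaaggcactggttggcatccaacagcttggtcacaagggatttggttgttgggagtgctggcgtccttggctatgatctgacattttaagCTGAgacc

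Searched on the RNA's own strand, ACA stood exactly 3 bases before the end in 20 of 24 tested Snora genes (83.3%) and within the last 10 bases in 23. The same exact position held ACA in 398 of 6082 small RNA genes of the table (6.5%) and in 0 of 85 tested box C/D snoRNA genes (Snord names). Among the 11 tested scaRNA genes ACA lay within the last 10 bases in 6, CTGA within the last 12 in 5, and TGATGA within the first 20 in 5. Those shares are 22.6%, 10.2% and 5.8% over the 6082 genes. Most tested Snora genes thus carry the end their class is named for, and the scaRNA genes are of mixed build. Snora73b lies at chr4:132352322-132352526 and Snora73a at chr4:132352775-132352979, both on the minus strand in an intron of Rcc1, 248 bases apart. They differ at 7 of 205 positions, so reads from one can be counted on the other. The Snora genes are 121 to 205 nt long and all 41 exceed the 100 nt of the size selection. Of the tested scaRNA genes, 9 of 11 do as well, up to the 414 nt of Scarna2. Reads of these genes are therefore pieces of the RNA, and the counts do not measure intact molecules.

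The libraries held 14505705 to 15271036 counts in knockout and 13510061 to 16248673 in control hearts, and members held 7921 to 8323 of them in knockout and 8484 to 9503 in control libraries. Control replicate 1 had 4664 features with a count, against 6018 and 5845 in the other controls. The knockout libraries had fewer, 3160, 3095 and 2995, with no overlap between the groups. The cause of this difference was not tested. No value of Elac2 mRNA was used here, and the genotypes rest on the labels. All 7 heart muscle miRNA genes used as markers had counts, with a summed level of 72669 to 93284 CPM in knockout and 117837 to 148037 CPM in control hearts, where CPM is counts per 1000000 after TMM scaling (edgeR's trimmed mean of M values, which evens out library composition). Blood and immune markers (5 of 6 with counts, Mir223 at 0) summed to 1037 to 1618 CPM in knockout and 629 to 1341 CPM in control hearts. Fibroblast markers (1 of 3 with counts, Mir199a-2 and Mir214 at 0) gave 1233 to 1310 CPM in knockout and 637 to 878 CPM in control hearts. Endothelial Mir126a had 17620 to 20972 CPM in knockout and 19531 to 23763 CPM in control hearts, and Mir143 with Mir145a, the smooth muscle pair, 22072 to 30035 CPM in knockout and 26672 to 33574 CPM in control hearts. By gene, 1 of the 7 heart muscle markers was called higher and 2 lower, so their sum does not describe each of them. Of 4 tested blood and immune markers, 1 was higher and 1 lower. The 1 tested fibroblast marker was higher, and no endothelial or smooth muscle marker was called. Over all features 23.2% were higher and 27% lower. The part of these markers in the results was not tested, and in whole hearts fewer cells of a type and less RNA per cell cannot be told apart. Each p-value weighs the difference between the groups against the spread between these mice, which the fit estimates partly over all features.

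Of the 35 tested members, 8 were higher and 0 lower in the knockout group (edgeR, quasi-likelihood test, TMM scaling), at a Benjamini-Hochberg adjusted p under 0.05 over all features, while snoRNA-based scalings gave 0 higher. All 8 are Snora genes (8 of 24, 33.3%), and 0 of 11 scaRNA genes were called. Over all 1144 features tested, 265 were higher (23.2%) and 309 lower (27%). The members' 22.9% is near that share of higher calls. At an unadjusted p under 0.05, 8 members were higher and 3 lower, against 26.4% higher and 31.2% lower of all features. DESeq2, which tested 44 members, called 5 of them higher and 0 lower, against 11% higher of all 2478 features it tested. The median log2 fold change was 0.25 over the members, 0.45 over the Snora genes, 0.09 over the scaRNA genes and -0.01 over all features. The groups did not overlap, with knockout above control, for 11 members (31.4% of 35, and 29.4% of all features), and with knockout below control for 2, Snora17 and Snora28 (5.71%, and 33.7% of all features).

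**Figure D1:**
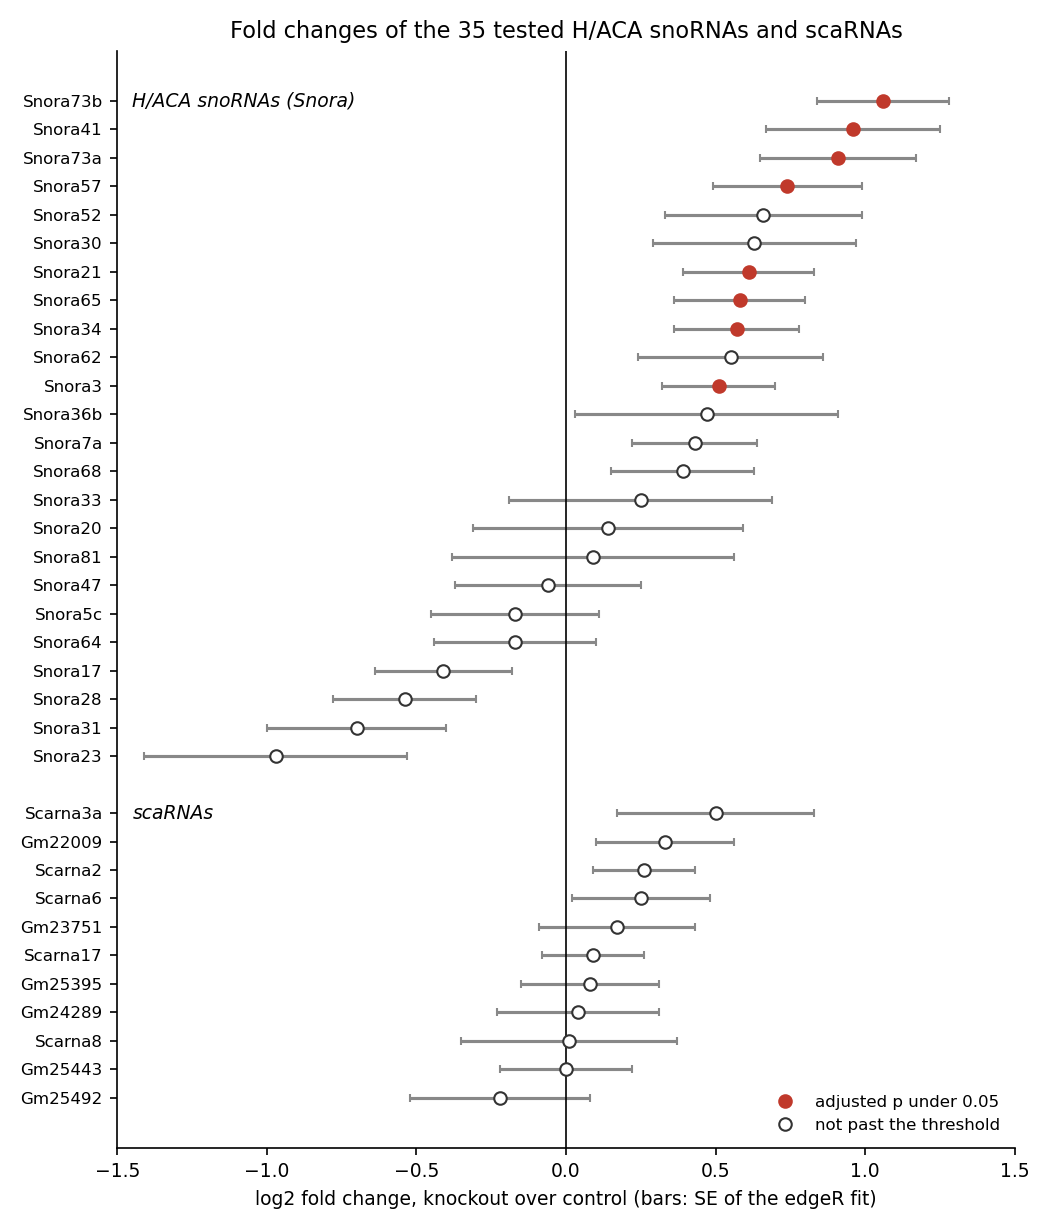
Log2 fold change (knockout over control) of each of the 35 tested members, with Snora genes above scaRNA genes and bars for the standard error of the fit. Filled points passed the test: 8 Snora genes from 0.51 to 1.06. The scaRNA genes lie between -0.22 and 0.50.

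The largest difference among members was that of Snora73b, which encodes a U17 RNA of ribosomal RNA processing. It stood at 11.4, 10.2 and 8.65 CPM in knockout hearts, against 4.94, 4.96 and 4.64 CPM in control hearts. Every knockout heart was above every control heart. The log2 fold change was 1.06 (SE 0.22, adjusted p = 0.0015 by edgeR, 2.08-fold), and the call was kept with each library left out and in 4 of 6 other scalings. With factors from snoRNA and scaRNA genes or from box C/D snoRNA genes it was lost, with values down to 0.08. The neighbouring copy Snora73a had 8.43, 4.83 and 5.80 CPM in knockout hearts, against 3.06, 3.49 and 3.55 CPM in control hearts. Knockout replicate 1 was well above the other knockout hearts, and the groups did not overlap. Its log2 fold change was 0.91 (SE 0.26, adjusted p = 0.0123 by edgeR), kept with each library left out but in only 2 of 6 other scalings, and -0.07 with box C/D-based factors. Summed, the pair had 19.8, 15.0 and 14.4 CPM in knockout hearts, against 8.02, 8.44 and 8.19 CPM in control hearts, which put the sum 0.9995 higher on the log2 scale (adjusted p = 0.00207 by edgeR). Their host transcript Snhg3, whose exon covers 77.6% of Snora73a, had 31 reads in all and was not tested. Gm17300 has an exon antisense to both, and without a stated strand setting its reads cannot be told apart from theirs.

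**Figure D2:**
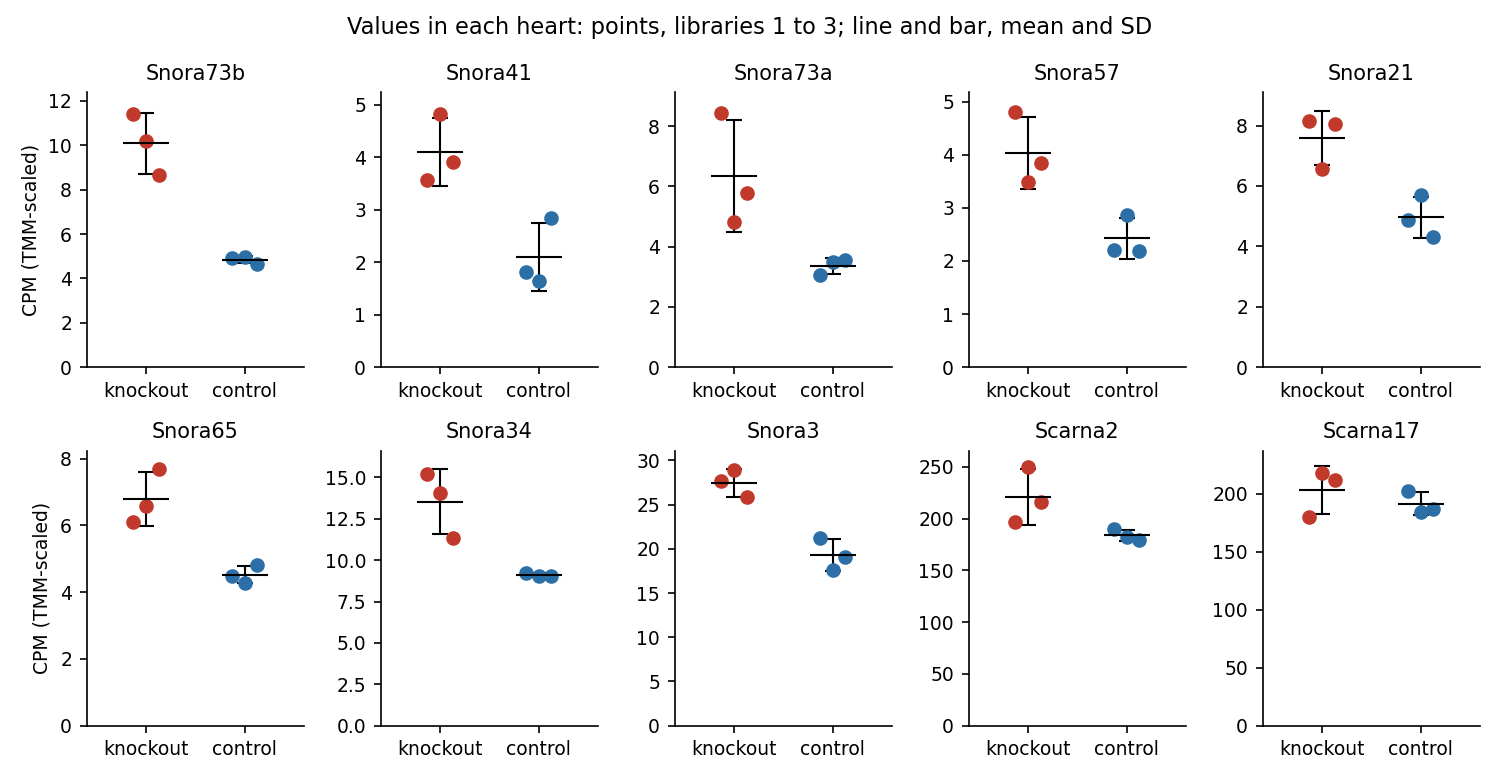
CPM (TMM-scaled) of the 8 Snora genes that passed the test and of the 2 most abundant scaRNA genes in each heart, knockout left of control; points are libraries, lines and bars the mean and SD of 3. Knockout points lie above all control points in each Snora panel and in that of Scarna2, which did not pass the test, and the groups overlap for Scarna17.

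Among the other called genes, Snora41, from an intron of the translation elongation factor gene Eef1b2 (chr1:63179004-63179135), came next. Knockout hearts had 3.56, 4.83 and 3.91 CPM, against 1.82, 1.63 and 2.84 CPM in control hearts. Control replicate 3 was the highest of the controls and still below every knockout heart. The log2 fold change was 0.96 (SE 0.29, adjusted p = 0.015 by edgeR), and the call was lost without control replicate 2 (0.76, adjusted p = 0.063). It was kept in 2 of 6 other scalings, with values down to -0.04. Snora57, known in human as U99 and here in no other gene on its strand (chr19:8888538-8888685), had 4.79, 3.48 and 3.84 CPM in knockout hearts, against 2.21, 2.87 and 2.19 CPM in control hearts. The groups did not overlap, and the log2 fold change was 0.74 (SE 0.25, adjusted p = 0.0322 by edgeR). It was lost without control replicate 3 (0.63, adjusted p = 0.125) and when reads of its copy Gm26132, 95.9% identical, were added (0.58, adjusted p = 0.0583). DESeq2 did not call it (0.74, adjusted p = 0.0857), and 2 of 6 other scalings kept the call, with values down to -0.24.

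The next genes by fold change lie in genes of ribosomal proteins of the large subunit. Snora21, in an intron of Rpl23 (chr11:97781639-97781775), had 8.14, 6.57 and 8.05 CPM in knockout hearts, against 4.88, 5.69 and 4.32 CPM in control hearts. Knockout hearts were all above control hearts (log2 fold change 0.61, SE 0.22, adjusted p = 0.041 by edgeR), and the call was lost without control replicate 3 (0.49, adjusted p = 0.174), with DESeq2 (0.61, adjusted p = 0.0718) and in 4 of 6 other scalings, with values down to -0.36. For Snora65, the RNA known in human as U65 and annotated within an exon of Rpl12 (chr2:32963291-32963420), knockout hearts gave 6.10, 6.57 and 7.68 CPM, against 4.49, 4.28 and 4.81 CPM in control hearts. The knockout hearts were all above the controls, and the log2 fold change was 0.58 (SE 0.22, adjusted p = 0.0446 by edgeR). Its call was lost without control replicate 2 (0.51, adjusted p = 0.104), control replicate 3 (0.60, adjusted p = 0.103) or knockout replicate 3 (0.68, adjusted p = 0.0584). It was also lost with DESeq2 (0.58, adjusted p = 0.0881) and kept in 1 of 6 other scalings, with values down to -0.40.

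Snora34 lies in an intron of Kansl2 (chr15:98519716-98519853), and the miRNA gene Mir1291, with 30 reads in all, covers 66.7% of it. It had 15.2, 14.1 and 11.4 CPM in knockout hearts, against 9.23, 9.07 and 9.02 CPM in control hearts. The control hearts were close together and below all knockout hearts. It was called (log2 fold change 0.57, SE 0.21, adjusted p = 0.0397 by edgeR), but not without control replicate 2 (0.53, adjusted p = 0.0791) or 3 (0.53, adjusted p = 0.125), and it was kept in 2 of 6 other scalings, with values down to -0.40. Snora3, annotated within an exon of Rpl27a (chr7:109520120-109520251), was the Snora gene with the most reads. It had 27.7, 29.0 and 25.8 CPM in knockout hearts, against 21.2, 17.6 and 19.1 CPM in control hearts. The log2 fold change was 0.51 (SE 0.19, adjusted p = 0.0464 by edgeR), with no overlap between the groups and a loss of the call without control replicate 2 (0.41, adjusted p = 0.114) or 3 (0.47, adjusted p = 0.147). The call was kept in 1 of 6 other scalings, with values down to -0.46. Near-identical copies elsewhere (at least 90% identity over 80% of the length) exist for 7 of the 8 called genes, all but Snora34, so that the split of reads between the copies is uncertain.

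Among the 16 Snora genes that did not pass the test, 9 had a log2 fold change above 0 and 7 below. Snora7a, within an exon of Rpl32, had 17.9, 18.1 and 15.3 CPM in knockout hearts, against 11.1, 15.0 and 11.97 CPM in control hearts. The groups did not overlap, yet the log2 fold change of 0.43 (SE 0.21) had an adjusted p of 0.111 by edgeR. Snora68 had 8.28, 8.47 and 7.53 CPM in knockout hearts, against 5.33, 7.999 and 5.14 CPM in control hearts (log2 fold change 0.39, adjusted p = 0.193 by edgeR). Control replicate 2 reached into the range of the knockout hearts. The others above 0 were Snora52 (0.66, adjusted p = 0.116), Snora30 (0.63, 0.138), Snora62 (0.55, 0.161), Snora36b (0.47, 0.393), Snora33 (0.25, 0.645), Snora20 (0.14, 0.812) and Snora81 (0.09, 0.878). The summed reads of Snora30 and its copy Gm25133, 98.5% identical, passed (log2 fold change 0.79, adjusted p = 0.0426 by edgeR).

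The lowest values were those of Snora23, from an intron of the importin gene Ipo7 (-0.97, SE 0.44, adjusted p = 0.0837 by edgeR), and Snora31, from an intron of Tpt1 (-0.70, SE 0.30, adjusted p = 0.0721). Snora28, within an exon of the translation initiation factor gene Eif5, followed with -0.54 (SE 0.24, adjusted p = 0.0766), then Snora17 with -0.41 (SE 0.23, adjusted p = 0.158). Snora28 had 2.47, 2.61 and 2.56 CPM in knockout hearts, against 3.77, 3.32 and 3.99 CPM in control hearts, and the groups did not overlap. Without control replicate 1, Snora23 (-1.02, adjusted p = 0.047) and Snora31 (-0.79, adjusted p = 0.0209) were called lower, as were 39.6% of the features then tested. Snora17 has near-identical copies under 2 names, Gm25053 and Gm25617, each given to a pair of rows of which 1 is at 0. The 5 rows together had 11.04, 9.97 and 9.93 CPM in knockout hearts, against 13.2, 18.6 and 16.5 CPM in control hearts. That sum was lower in knockout hearts (log2 fold change -0.64, adjusted p = 0.0266 by edgeR) with no overlap, the 1 lower call with copies summed, where 27.1% of all features were lower. Gm25053 gave more of its reads than Snora17 (630 against 515) and was itself lower (log2 fold change -0.98, adjusted p = 0.00397 by edgeR). Snora47, Snora5c and Snora64 lay between -0.17 and -0.06.

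Of the 11 scaRNA genes tested, none passed (lowest adjusted p = 0.226 by edgeR, 0 at an unadjusted p under 0.05, 0 by DESeq2), and values ran from -0.22 to 0.50. Scarna2, which in human is a box C/D guide for methylation of U2 snRNA, had 197, 250 and 216.1 CPM in knockout hearts, against 190, 182 and 180 CPM in control hearts. Knockout hearts were all above control hearts (log2 fold change 0.26, SE 0.17, adjusted p = 0.226 by edgeR). Scarna17, also a box C/D scaRNA, had 180, 218 and 212 CPM in knockout hearts, against 202, 184 and 187 CPM in control hearts. These ranges overlapped, and the log2 fold change was 0.09 (SE 0.17, adjusted p = 0.686 by edgeR). The 2 genes together held 69.0% ± 3.09 of all member counts in knockout hearts and 70.8% ± 0.268 in control hearts (SD, n = 3 each).

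Gm25492, which ends like an H/ACA RNA and lies in an intron of Bud23, had 16.8, 12.5 and 9.63 CPM in knockout hearts, against 20.7, 9.69 and 15.0 CPM in control hearts. The difference between the groups was smaller than the spread within each (log2 fold change -0.22, SE 0.30, adjusted p = 0.561 by edgeR). Gm23751, in an intron of Chd4, had 5.81, 8.86 and 8.58 CPM in knockout hearts, against 7.67, 5.07 and 7.98 CPM in control hearts (0.17, adjusted p = 0.61). Gm25443 had 5.81, 7.67 and 6.62 CPM in knockout hearts, against 7.48, 6.42 and 6.17 CPM in control hearts (0.00, adjusted p = 0.991). A stretch of 70 nt of it is identical to Scarna17, so its reads may belong to that gene. Scarna6 stood 0.25 higher on the log2 scale (adjusted p = 0.384), and its neighbour in the same host gene Atg16l1, Gm25395, 0.08 (adjusted p = 0.774). The H/ACA scaRNA genes Scarna3a and Scarna8, which in human guides pseudouridylation of U2 snRNA, had 0.50 (adjusted p = 0.233) and 0.01 (adjusted p = 0.98). Gm22009 (0.33, adjusted p = 0.256) and Gm24289 (0.04, adjusted p = 0.911) complete the list.

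Per length of the annotated gene, Scarna17 stood highest with 257 CPM per 100 nt in knockout and 242 CPM per 100 nt in control hearts. In knockout hearts Scarna2 (53.3), Snora3 (20.8), Snora7a (12.2), Gm25492 (10.1) and Snora34 (9.81 CPM per 100 nt) followed. In control hearts Scarna2 (44.4), Snora3 (14.6), Gm25492 (11.7), Snora7a (9.05), Gm25443 (8.80) and Snora34 (6.60 CPM per 100 nt) followed, and Gm25443 stood at 8.82 CPM per 100 nt in knockout hearts. The libraries of Gm25492 overlapped those of Snora7a in both groups. The least abundant per length was Snora23 in knockout hearts (0.306 CPM per 100 nt) and Snora81 in control hearts (0.397 CPM per 100 nt). Scarna17 and Gm25443 are shorter than the upper size limit and can be read whole, unlike the others named here, so these values do not rank intact RNAs.

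**Figure D3:**
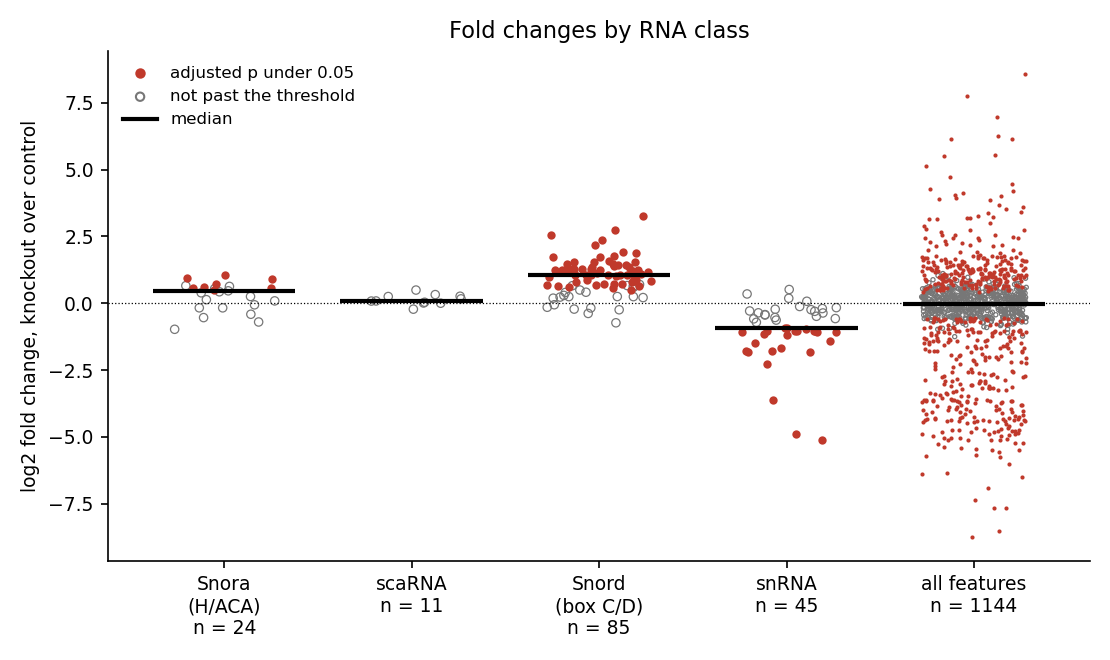
Log2 fold change (knockout over control) of every tested feature by RNA class, with a bar at the median: 24 Snora (0.45), 11 scaRNA (0.09), 85 Snord (1.04), 45 snRNA (-0.93) and all 1144 features (-0.01). Filled points passed the test; no difference between classes was tested.

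Beside them, the box C/D snoRNA genes with Snord names had a median log2 fold change of 1.04, with 63 of 85 higher and 0 lower. The snRNA genes, whose RNAs many scaRNAs modify, had a median of -0.93, with 0 of 45 higher and 24 lower. The difference between these classes and the members was not tested. Other RNAs of related machinery did not pass the test. Rmrp, the RNA of the ribosomal RNA processing enzyme RNase MRP, had 599, 509 and 479 CPM in knockout hearts, against 463, 339 and 377 CPM in control hearts (log2 fold change 0.43, SE 0.18, adjusted p = 0.0691 by edgeR, with no overlap). Rpph1, the RNase P RNA, had 58.0, 55.1 and 54.9 CPM in knockout hearts, against 59.9, 42.2 and 50.9 CPM in control hearts (0.14, adjusted p = 0.577). Terc, the telomerase RNA with an H/ACA domain, had 13 reads in all and was not tested.

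As a share of all counts, without any scaling, Snora genes held 0.0121% ± 0.00140 in knockout hearts and 0.0116% ± 0.000394 in control hearts (SD, n = 3 each), and the groups overlapped. The scaRNA genes held 0.0423% ± 0.00121 in knockout hearts and 0.0481% ± 0.00344 in control hearts, with no overlap. All members together held 0.0546%, 0.0545% and 0.0539% in knockout hearts and 0.0628%, 0.0567% and 0.0596% in control hearts. The 95% Wilson intervals, which cover counting error only, ran from 0.05275% to 0.05582% over the knockout and from 0.05555% to 0.06415% over the control libraries. The ratio of the means was 0.91. Snord genes held 41.0% ± 0.673 in knockout hearts and 26.5% ± 1.10 in control hearts, and all snoRNA and scaRNA genes 62.9% ± 1.21 in knockout hearts and 41.0% ± 1.65 in control hearts. Within those snoRNA and scaRNA counts the members held 0.0864% ± 0.00112 in knockout hearts and 0.145% ± 0.00173 in control hearts, a ratio of 0.594.

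**Figure D4:**
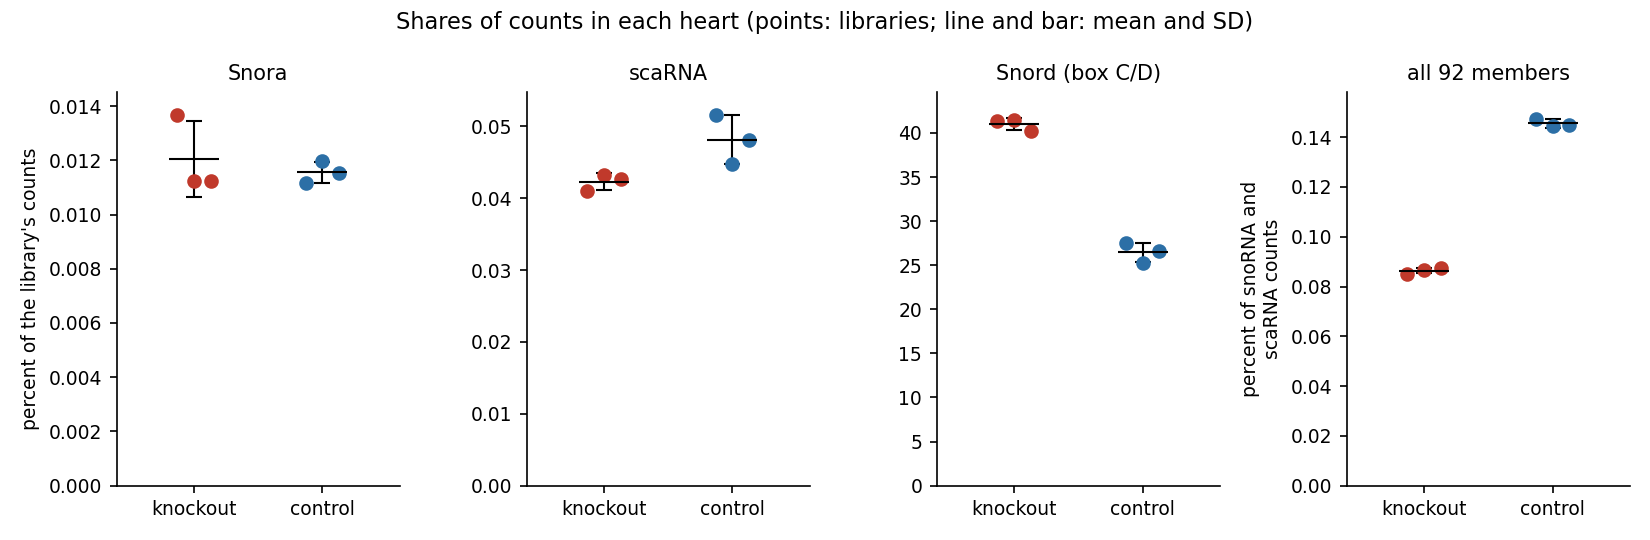
Percent of each library's counts in Snora, scaRNA and Snord genes, and percent of the snoRNA and scaRNA counts held by the 92 members, knockout left of control; points are libraries, lines and bars the mean and SD of 3. Only the Snora share overlaps between the groups, and the last panel stands at 0.0864% in knockout and 0.145% in control hearts.

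Direction within the class depended on how the libraries were scaled. With relative log expression factors 6 members were higher and 0 lower (22.4% and 29% over all features), with total counts 1 and 4 (14.9% and 37.8%), and with miRNA-based factors 1 and 1 (16.6% and 31.1%). Scaled on snRNA and rRNA genes, 15 members were higher and 0 lower (35.8% and 19.6%). Scaled on snoRNA and scaRNA genes, 0 were higher and 15 lower (8.83% and 57.6%), and scaled on box C/D snoRNA genes 0 and 17 (7.43% and 61.5%). Relative to TMM these scalings moved the median of all features by -0.03, -0.34, -0.18, 0.55, -0.85 and -0.97 on the log2 scale. The median of members stood 0.26 to 0.28 above that of all features in each of the 7. A scaling moves every feature by nearly the same amount, so this difference had to stay alike and supports no result. The set of snoRNA and scaRNA genes contains the members themselves. Of the tested box C/D snoRNA genes, 63 of 85 were higher with TMM and 0 lower. Factors from a class that is itself shifted move all other values the opposite way. The counts under these snoRNA-based scalings are therefore no independent check of the members' direction. Snora73b was the 1 member called higher with total counts (log2 fold change 0.72) and with miRNA-based factors.

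**Figure D5:**
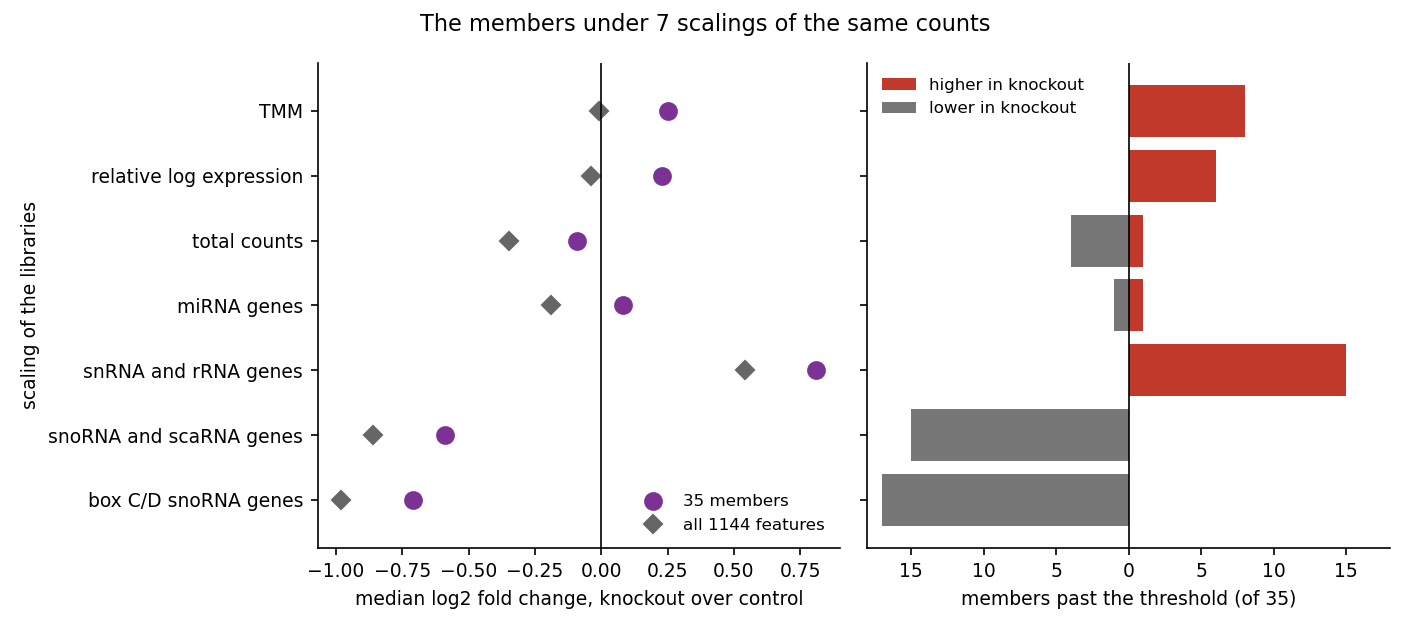
Median log2 fold change (knockout over control) of the 35 members and of all 1144 features under 7 scalings (left), and the members past the threshold in each direction (right). The members' median runs from -0.71 with box C/D-based factors to 0.81 with snRNA and rRNA-based factors, and that of all features from -0.98 to 0.54.

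Leaving out single libraries moved the count of higher calls most for the controls. It was 4 of 35 members without control replicate 2 and 3 of 36 without control replicate 3 (21% and 19.3% of all features). Without knockout replicate 1 it rose to 10 of 37 (22.9% of all features). Fitted with the replicate number as a block, 4 members were higher (21.2% of all features). Without the filter on low counts, 10 of 52 members were higher (4.68% of the 9254 features then tested). Scarna2 was among them (log2 fold change 0.62, adjusted p = 0.0413 by edgeR), against 0.26 with the filter. Features with few counts enter that share, so it does not compare with the members' count. Dropping the filter also changed the scaling, with a shift of 0.36 on the log2 scale.

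By position, 12 of the 24 tested Snora genes lie in an intron of a protein-coding gene, 10 overlap an exon of one, and 2 lie in no other gene on their strand. Of the 9 in a ribosomal protein gene, 3 were higher (33.3%, median log2 fold change 0.51), and of the 15 others 5 (33.3%, median 0.14). Of the 10 that overlap an exon, 2 were higher (20%, median 0.32), and of the 14 others 6 (42.9%, median 0.56). Over all features 23.2% were higher. The sets are small, and no difference between them was tested. In the authors' deposited table, 12 members have a mean normalized count under 50% of that in the authors' deposited normalized counts, 11 of them listed at 0, and all 12 overlap an exon of a protein-coding gene, against 1 of the 40 other members with counts. Over all features with counts this held for 300, of which 95.9% of those with a position overlap such an exon, against 1.73% of the rest. Snora3 and Snora65, called here, are among the members listed at 0 and carry no test there. The authors' deposited table gives an adjusted p for 32 members and calls 4, all higher and all among the 8 called here: Snora73b (adjusted p = 0.000461), Snora73a (0.0181), Snora41 (0.0347) and Snora34 (0.0417), where 8.78% of all its features are called higher.

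Among the 57 members not tested, 17 had counts. Snora69 had 64 reads in all, with 9, 6 and 7 in knockout and 5, 24 and 13 in control libraries. Gm22767 had 43 reads (8, 4 and 3 in knockout, 10, 13 and 5 in control libraries) and Snora70 37 reads (4, 6 and 10 in knockout, 4, 5 and 8 in control libraries). Scarna13 had 34 reads (5, 6 and 6 in knockout, 10, 5 and 2 in control libraries) and Gm22728 had 30 reads (7, 4 and 4 in knockout, 4, 8 and 3 in control libraries). Both groups overlapped for each of these. A count of 0 in a library allows up to 0.185 to 0.222 CPM before TMM scaling. Of the 10 Snora genes at 0, 8 are covered whole by an exon of another counted feature, against 0 of the 31 with counts. Snhg12 covers Snora44, Snora61 and both rows of Snora16a, Snhg15 covers Snora9, Snhg8 covers Snora24 and Dancr covers Snora26. Of the 30 scaRNA genes at 0, 11 are covered in this way, against 1 of the 21 with counts. A second row of the same name covers 9 of those 11, and most scaRNA genes at 0 are not covered. Whether reads there were set aside as shared was not tested, so a 0 does not show that the RNA is absent. Snhg12 itself, which the files count with these 4 rows inside it, had 34.1, 34.1 and 29.2 CPM in knockout hearts, against 21.97, 20.2 and 19.2 CPM in control hearts. Its log2 fold change was 0.66 (SE 0.19, adjusted p = 0.0129 by edgeR), with no overlap between the groups.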

How the data were processed

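For each of the 6 libraries the authors deposited whole-number counts per feature and normalized counts, a signal in which each library's counts were divided by a size factor of its own. The authors' deposited comparison gives, per the file headers, a mean normalized count, log2 fold changes, a Wald score, p-values and adjusted p-values per feature. The submitters' processing notes list DESeq2 1.16.1, featureCounts 1.5.1, Bowtie2 2.2.9 and cutadapt 1.14, and the build mm10. Not given in the sources used here are the annotation and strand setting of the authors' counting, and what became of reads that hit several places or features. There were 0 columns of other samples.

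The counts were fitted over the whole table. Features passing edgeR's filterByExpr (minimum count 10, minimum total 15) were scaled by TMM, and the groups were compared by the quasi-likelihood functions of edgeR 4.0.16 under R 4.3.3, without covariates. Adjusted p-values are Benjamini-Hochberg over 1144 features, 0.05 was the threshold, and each adjusted p given for a gene is from this edgeR fit unless another tool or table is named. Each standard error is the log2 fold change divided by the square root of F. Values are TMM-scaled CPM. TMM factors were 0.949, 0.828 and 0.889 in knockout and 1.14, 1.09 and 1.15 in control replicates 1 to 3. The script was tested on simulated data. Alternatives were 6 other scalings, no filter, DESeq2 1.42.0, each library left out and a replicate block. Summing near-identical copies was added after the data were seen. Positions, hosts and sequences came from GENCODE M21 (GRCm38), and copies from BLASTN 2.17.0. Tables used Python 3.11.15 and pandas 2.3.3, intervals SciPy 1.17.1 and figures matplotlib 3.10.9. No 2 libraries were alike within counting error (lowest chi-square per degree of freedom 98.2).

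The members, subgroups, marker lists and alternatives were chosen with earlier results of these data known. Per-library values are given for each called member and for the 10 most abundant ones, the remaining tested members are given by fold change, and the 5 untested members with the most reads by counts; Snora28 and the summed Snora17 copies are added outside that rule, after their values were seen. Replicate numbers come from the titles. Libraries of the same number did not deviate together (correlations -0.13, -0.02 and -0.19). With so few libraries this cannot exclude a pairing of the mice, and the main fit uses none.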

Additional observations from a re-analysis of the deposited data

How the results depend on the processing

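The count of 8 higher and 0 lower members became 1 and 4 with total counts, 1 and 1 with miRNA-based factors, 15 and 0 with snRNA and rRNA-based factors, 0 and 15 with factors from snoRNA and scaRNA genes, and 0 and 17 with box C/D-based factors. DESeq2 called 5 of 44 members higher. The median log2 fold change of members was -0.09, 0.08, 0.81, -0.59 and -0.71 under those 5 scalings in the same order. It was 0.58 without the filter, where 52 members enter. With copies summed, 7 of 36 members were higher and 1 lower (23% and 27.1% of all features). The fit with the replicate block called 4 higher and lost Snora21, Snora3, Snora34 and Snora65. Leaving out 1 library gave 3 to 10 higher and 0 to 2 lower, of 35 to 37 members tested, and a median of 0.22 to 0.55. The share of members in all counts, 0.91 times that of control, was 0.594 times as a share of snoRNA and scaRNA counts. Of 558 values of single members under an alternative, 453 kept direction and call or were called in neither, 38 lost the call, 39 gained one and 28 changed sign with a call in at least 1 of the fits. Of the 27 tested members above 0 with TMM, called or not, 12 were below 0 with total counts, 2 with relative log expression factors, 8 with miRNA-based factors, 24 when scaled on snoRNA and scaRNA genes and 26 with box C/D-based factors, and 6 of those below 0 were above 0 with snRNA and rRNA-based factors. Among the 24, those called in either fit had log2 fold changes of Scarna2 -0.58, Scarna6 -0.60, Scarna17 -0.76, Gm23751 -0.69, Gm25395 -0.76, Gm24289 -0.81, Gm25443 -0.84, Snora34 -0.27, Snora21 -0.23, Snora57 -0.11, Snora3 -0.34 and Snora65 -0.27. Among the 26 they were Scarna2 -0.71, Gm22009 -0.66, Scarna6 -0.71, Scarna17 -0.89, Gm23751 -0.81, Gm25395 -0.90, Gm24289 -0.92, Gm25443 -0.96, Scarna8 -0.95, Snora73a -0.07, Snora41 -0.04, Snora34 -0.40, Snora21 -0.36, Snora57 -0.24, Snora3 -0.46 and Snora65 -0.40. The cause was not tested. Total counts over the 6 libraries ran from 57 for the least covered tested gene. Of the 57 members not tested, 40 were at 0 in all libraries and 17 had few counts.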
